A study of Mus musculus with 10 samples.

Results

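Collagens are the main structural proteins of connective tissue. Each molecule is a triple helix of 3 chains, made from repeated glycine-containing triplets, and the chains are encoded by separate genes that are combined within a type. Fibrillar collagens form the tensile fibres of bone, skin and tendon, network collagens form sheets such as basement membranes, beaded filament collagens link fibres to cells, and FACIT collagens coat the surface of fibrils. In the marrow, stromal cells and the osteoblasts derived from them are the source of much of this matrix. The collagen chain genes were taken as all genes whose symbol in the probe annotation of the array matched Col, digits, a, digits. There were 44 of them among 19938 genes with a probe set of their own, and for each gene the probe set with the highest mean over the 10 arrays was used.

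The levels were measured in bone marrow mesenchymal stromal cells (MSC), the plastic-adherent precursors of bone and fat cells. The 5 preparations, MSC I to MSC V, each came from the marrow of female C57BL/6J mice (6 to 8 weeks of age), carried no treatment and were grown to passage 16 to 17 in MesenCult medium with mesenchymal supplement. Each preparation was measured on 2 arrays from total RNA, and no preparation was labelled as a control. Whether the 2 arrays came from separate cultures or animals is not stated, so the spread behind each p-value may be a technical one, and with 2 arrays a group the precision is limited. All levels below are log2 expression values normalised by RMA, so a difference of 1 is a 2-fold change.

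Over all arrays the median level lay between 6.45 and 6.63. Of 9 stromal markers with a probe set, 5 to 7 lay above the median of the table on both arrays of a preparation, Pdgfra, Pdgfrb, Cd44 and Cxcl12 in every one. The endothelial glycoprotein Eng, often used to define MSC, did so in MSC IV alone (9.69 and 9.50), and the receptor Lepr in MSC III and MSC IV. Endothelial and epithelial markers lay under that median on every array (0 of 5 genes of each list), as did 4 of the 5 blood cell and macrophage markers with a probe set (Ptprc between 5.11 and 5.25). The exception, the lysosomal protein Cd68, was higher in MSC V (8.53 and 8.55, against 6.40 to 7.52 on the other arrays, difference 1.60, adjusted p = 0.000775). That list summed to 506 to 513 in MSC V, against 218 to 318 in the other four. The gap in the sum is that of Cd68, as the 4 other genes had ranges of preparation means of 0.08 to 0.16 log2. Adipocyte markers moved with MSC I, where all 5 lay above the median and their summed linear level was 17000 to 20800, against 318 to 1400 in the other four preparations. Of 5 osteoblast markers, Ibsp, Sp7 and Alpl were higher in MSC IV, the calls of Ibsp and Alpl being lost without MSC IV replicate 1 (adjusted p = 0.0597 and 0.0772), while Dmp1 and Phex were not called. The summed level of the 5 in MSC IV was 14600 to 44100, against 761 to 5600 in the other four, while the summed stromal markers were lowest there (7350 to 7640, against 8520 to 20700) and so were those of smooth muscle (9340 to 10200, against 18300 to 26800). By gene the stromal list was mixed in MSC IV, with 2 markers called higher and 3 lower (3.29% and 7.7% of all tested genes). The marker Nt5e had 10.75 and 11.66 in MSC IV, against 5.77 to 8.27 on the other arrays. The part of these lists in the collagen results was not tested. In such bulk RNA, fewer cells of a type and less RNA per cell cannot be told apart.

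Levels of the chains ranged over most of the scale of the array. The median of the whole table was 6.55, and a gene entered the tests if it exceeded this on 2 arrays or more. Of the 44 chains 22 passed, and 10 of these lay above it on all 10 arrays: Col1a1, Col1a2, Col3a1, Col4a5, Col5a1, Col5a2, Col6a1, Col6a2, Col8a1 and Col12a1. Another 3 passed through 1 preparation alone, namely Col6a4 (MSC I), Col6a5 and Col26a1 (MSC II). Such a gene can only be higher there, so counts over the tested chains describe them and are not used as evidence. The 22 chains that were not tested held all 3 chains of the cartilage collagen type IX, the skin anchoring fibril chain Col7a1, the 4 transmembrane collagens and the kidney-type basement membrane chains Col4a3 and Col4a4. Of these 22, 18 had no array above the median and 4 had 1 such array (Col6a6, Col14a1, Col15a1 and Col24a1). A low level does not show that a transcript was absent, as detection was not called.

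**Figure D1:**
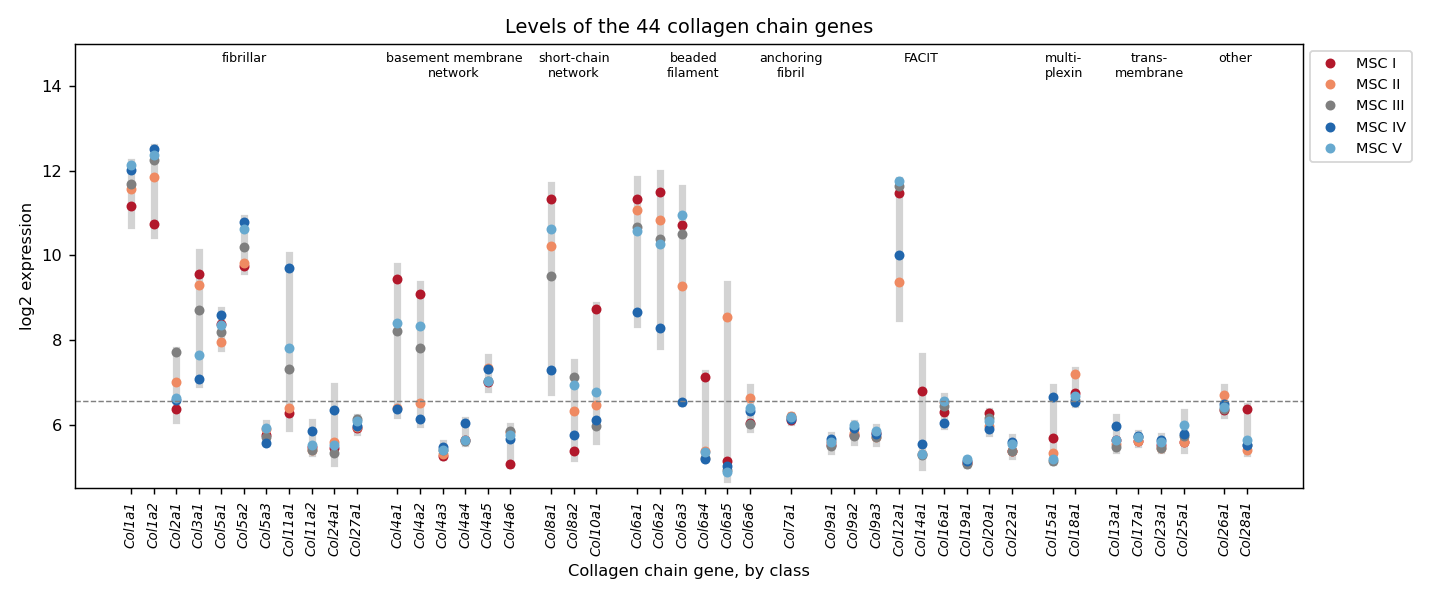
Log2 expression of the 44 collagen chain genes, grouped by class. Points are the means of the 2 arrays of each preparation, grey bars span the lowest and highest of the 10 arrays, and the dashed line marks the median of the table (6.55). Col12a1 is the 1 FACIT chain far above the line, and the transmembrane chains and Col7a1 lie under it on every array.

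The preparations were first compared all together. In the F test of limma, with p-values adjusted by Benjamini-Hochberg for 10971 genes, 16 of the 22 tested chains differed by at least 1 log2, beside 29.1% of all tested genes. With no filter on low values 17 of all 44 chains differed (38.6%), beside 14.6% of all 19938 genes. The median range of preparation means was 0.72 log2 over the 44 chains and 0.43 over all genes in that fit. All 5 tested chains of the beaded filament class differed, as did 3 of 3 short-chain network chains, 2 of 3 basement membrane chains, 5 of 7 fibrillar chains and 1 of 2 FACIT chains. These counts only describe the tested chains, as Col6a4 and Col6a5 passed the filter through 1 preparation alone. With no filter, 5 of all 6 beaded filament chains differed. The 6 tested chains that were not called had ranges of 0.31 to 0.98 log2. They were Col1a1, Col4a5, Col5a1, Col16a1, Col18a1 and Col26a1. Without MSC I replicate 1 Col1a1 was called as well (range 1.44, adjusted p = 0.0239).

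**Figure D2:**
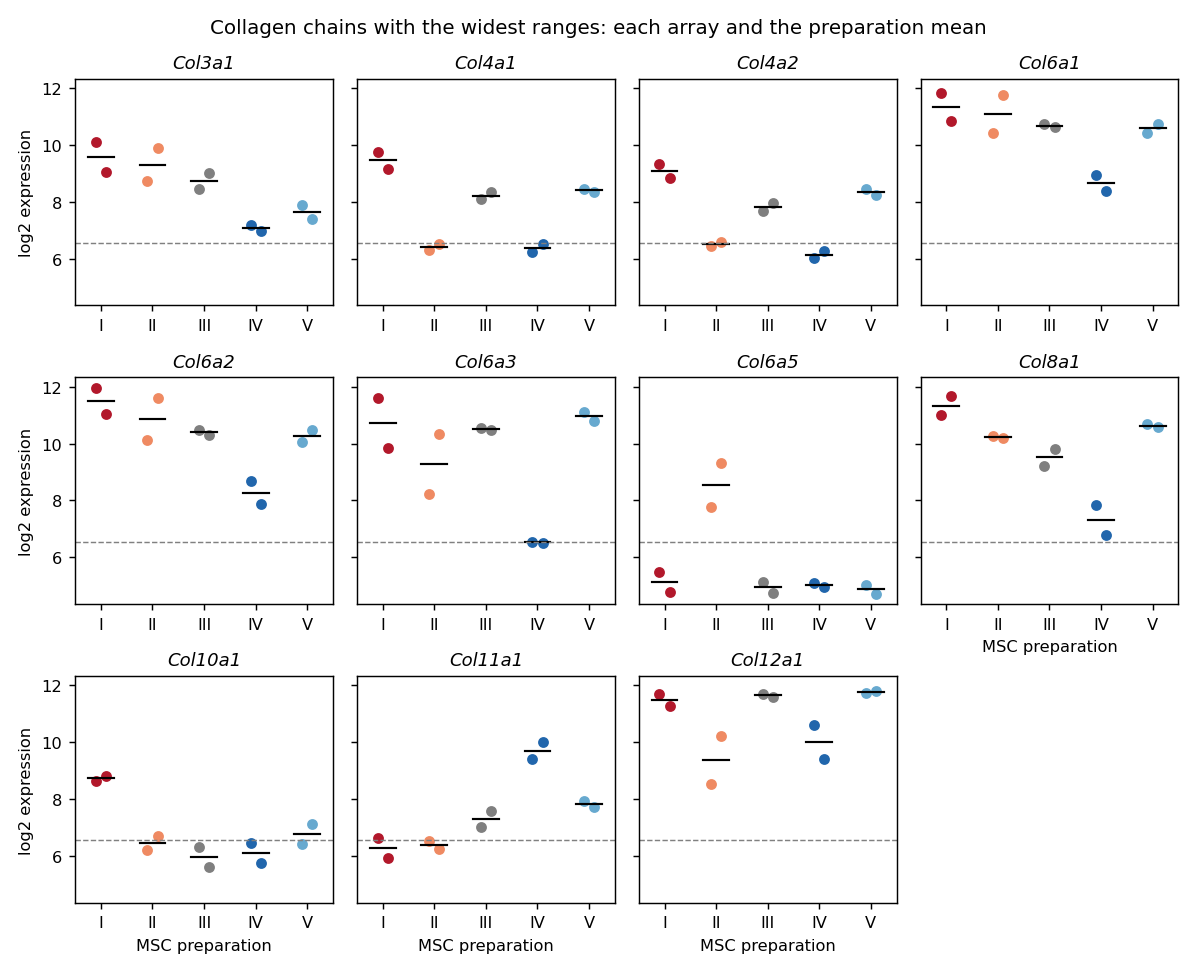
Log2 expression of the 11 collagen chains that differed in the F test with a range of preparation means of at least 2 log2. Points are single arrays, black bars are means of 2 arrays, and the dashed line marks 6.55. Col6a3, Col6a1, Col6a2 and Col8a1 are lowest in MSC IV, Col11a1 is highest there, and Col4a1, Col4a2 and Col10a1 are highest in MSC I.

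Among the 16 chains that differed, MSC I held the highest mean of 8 and MSC IV the lowest mean of 8. Of all genes that differed, 38.0% were highest in MSC I and 36.6% lowest in MSC IV. Between MSC I and MSC IV 12 of 22 tested chains were called (20.3% of all tested genes). The next counts were 10 chains between MSC III and MSC IV (7.99% of all genes), 9 between MSC I and MSC III (11.3%), and 8 each between MSC I and MSC II (14.9%) and between MSC IV and MSC V (10.9%). There were 7 each between MSC I and MSC V (10.5%) and between MSC II and MSC IV (9.06%), 5 between MSC II and MSC V (5.56%) and 3 between MSC II and MSC III (3.02%). With the replicate number as a block, the counts were 5 for MSC III and MSC IV and 3 for MSC II and MSC V. MSC III and MSC V gave 0 chains in limma (2.07% of all genes), with 5 at an unadjusted p under 0.05, and 0 with the block, with 2 at an unadjusted p under 0.05.

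Each preparation was then set against the mean of the other four. MSC I had 8 tested chains higher and 3 lower (7.73% and 5.22% of all tested genes). MSC II had 1 higher and 4 lower (2.45% and 2.69%, 5.14% in either direction), with 3 in all without either of its arrays. MSC III had 1 higher, Col2a1, and 0 lower (1.31% and 0.957%, 2.27% in either direction). MSC IV had 1 higher and 7 lower (3.29% and 7.7%), with 5 in all without MSC IV replicate 2. MSC V had 0 in limma (3.55% in either direction), with 11 at an unadjusted p under 0.05. Of these, Col6a3 (1.7), Col8a1 (1.04) and Col12a1 (1.13) were higher and Col3a1 (-1.02) and Col6a5 (-1.03) lower by more than 1 log2. For Col6a5 the other four include MSC II (mean 8.54), and MSC V (4.88) lay near MSC I, III and IV (4.94 to 5.13). Col4a2 (1.02, adjusted p = 0.011) and Col8a1 (1.12, adjusted p = 0.0384) were called in MSC V with arrays centred on their medians, and the same 2 after a further quantile normalisation. Col6a3 and Col12a1 were called in MSC V without MSC II replicate 2, Col8a1 without MSC IV replicate 1 and Col8a2 without MSC V replicate 1.

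**Figure D3:**
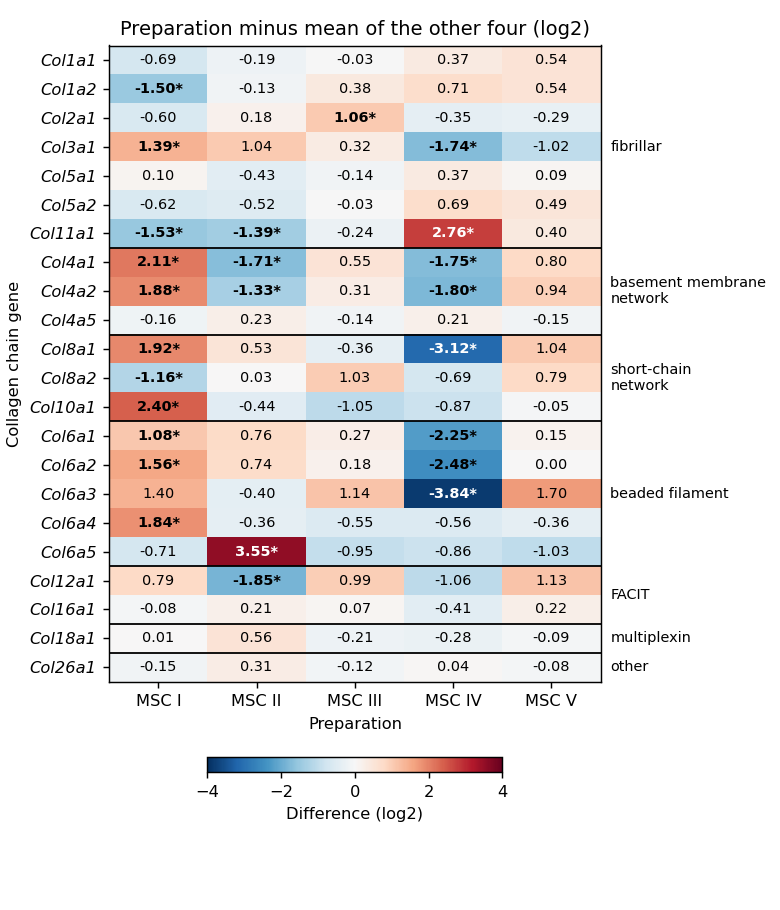
Difference of each preparation from the mean of the other four (log2) for the 22 tested chains, by class. Asterisks and bold type mark adjusted p under 0.05 and at least 1 log2. MSC IV is lower in 7 chains and higher in Col11a1, and MSC V has no marked chain.

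Among the fibrillar chains, different preparations stood apart for different genes. Col1a2, a chain of type I collagen, the main protein of bone matrix, was lower in MSC I. It had 11.01 and 10.49 in MSC I, against 11.63 to 12.57 (median 12.27) on the 8 other arrays, with no overlap. The difference was -1.5 ± 0.166 (SE), a 2.83-fold lower level (adjusted p = 0.000457), and MSC I was lower than each of the other four in the pairwise tests. Its partner chain Col1a1 had 11.62 and 10.71 in MSC I, against 11.30 to 12.20 on the other arrays. That difference was under 1 log2 and so was not called (-0.69 ± 0.234, adjusted p = 0.0453; F test, adjusted p = 0.0994), and the arrays overlapped. Without MSC I replicate 1 it was -1.15 (adjusted p = 0.0138).

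Col3a1, the chain of type III collagen of elastic tissues, ran the other way. In MSC I it had 10.09 and 9.06, against 6.97 to 9.88 (median 8.17) on the other arrays, which overlap. It was 1.39 ± 0.361 higher in MSC I (adjusted p = 0.0178), a call lost without MSC I replicate 1 (0.87, adjusted p = 0.18). In MSC IV it had 7.17 and 6.97, below all other arrays (7.40 to 10.09), and was lower by -1.74 ± 0.361 (adjusted p = 0.00993). Without MSC IV replicate 1 or 2 the adjusted p was 0.0505 and 0.0965. The order of means was MSC I, II, III, V and IV, and only MSC I, II and III differed from MSC IV and MSC I from MSC V. Col5a2 is the neighbouring gene of Col3a1 on chromosome 1 and a chain of type V collagen, which starts fibril assembly. It had its highest mean in MSC IV (10.78 ± 0.14, SD, n = 2) and its lowest in MSC I (9.74 ± 0.148). Of the 10 pairs only MSC I and MSC IV were called (-1.05, adjusted p = 0.00165). MSC II and IV (-0.96), MSC I and V (-0.89), MSC II and V (-0.8) and MSC III and IV (-0.58) missed only the 1 log2 threshold (adjusted p = 0.00611 to 0.0465 in the pairwise tests). Its F call was lost without MSC I replicate 2 (range 0.96) or MSC IV replicate 2 (range 0.95).

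Col11a1 encodes a chain of type XI collagen, a minor fibrillar collagen of cartilage fibrils that also occurs in bone-forming cells. It had 9.40 and 10.02 in MSC IV, above every other array (5.92 to 7.92, median 6.84). The difference of 2.76 ± 0.248 is a 6.76-fold higher level (adjusted p = 0.00032). MSC IV differed from each other preparation. MSC V (7.82 ± 0.141) and MSC III (7.31 ± 0.407) followed and did not differ from each other, and MSC II (6.39 ± 0.186) and MSC I (6.28 ± 0.517) were lowest. MSC I (-1.53, adjusted p = 0.00257) and MSC II (-1.39, adjusted p = 0.00962) were lower than the other four, the second call being lost without MSC II replicate 2 (-1.26, adjusted p = 0.0907). For both, the mean of the other four includes MSC IV (mean 9.71). In the pairwise tests MSC I was also lower than MSC III (-1.03, adjusted p = 0.0457) and MSC V (-1.54, adjusted p = 0.0113). MSC II was lower than MSC V (-1.43, adjusted p = 0.0252) but was not called against MSC III (-0.92, adjusted p = 0.123). MSC I and MSC II lay at the low end of the table, where differences between low values are compressed.

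Col2a1, the main cartilage collagen, had 7.76 and 7.66 in MSC III, against 6.12 to 7.36 (median 6.63) on the other arrays. It was 1.06 ± 0.195 higher in MSC III (adjusted p = 0.0245). This call was lost without MSC III replicate 1 (adjusted p = 0.218) or replicate 2 (adjusted p = 0.169), MSC I replicate 2 (0.99), MSC II replicate 1 (0.97), MSC IV replicate 2 (adjusted p = 0.0537) or MSC V replicate 2 (adjusted p = 0.05), and with the replicate block (adjusted p = 0.0606). Of 6 chondrocyte markers, 5 lay under the median of the table on every array, the cartilage proteoglycan Acan between 4.90 and 5.06. Sox9 was not low, and lay above the median on all 10 arrays (7.45 to 10.76). It had 9.07 and 9.67 in MSC III, and its highest mean was in MSC V (10.71). Type V chain Col5a1 had preparation means between 7.95 (MSC II) and 8.59 (MSC IV) and was not called (adjusted p in the F test 0.205).

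The basement membrane chains Col4a1 and Col4a2, which together form the type IV collagen of nearly all basement membranes, had the same preparations at their high and low ends. Col4a1 had 9.75 and 9.15 in MSC I, against 6.23 to 8.46 (median 7.30) on the other arrays. For Col4a2 the values were 9.32 and 8.84 in MSC I, against 6.01 to 8.43 (median 7.12). Both arrays of MSC I lay above all others for both genes. The differences were 2.11 ± 0.167 for Col4a1 (adjusted p = 8.37e-05) and 1.88 ± 0.157 for Col4a2 (adjusted p = 0.00011), or 4.31- and 3.68-fold.

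At the low end stood MSC II and MSC IV. Col4a1 had 6.30 and 6.5 in MSC II and 6.23 and 6.5 in MSC IV, and its difference from the other four was -1.71 in MSC II (adjusted p = 0.000973) and -1.75 in MSC IV (adjusted p = 0.000423). Col4a2 had 6.44 and 6.58 in MSC II and 6.01 and 6.27 in MSC IV, with differences of -1.33 (adjusted p = 0.00212) and -1.80 (adjusted p = 0.000275). Apart from Col4a2 on MSC II replicate 2, these values lie under the median of the table, where differences between low values are compressed. MSC III and MSC V stood between, with Col4a1 means of 8.21 ± 0.165 and 8.40 ± 0.0745 that did not differ from each other. The 6 differences named here for these chains kept their calls when any 1 array was left out. No endothelial marker moved with them: the 5 of that list summed to between 155 and 174 on a linear scale on every array. The third tested chain, Col4a5, stayed between 6.84 and 7.60 on all arrays and was not called (range 0.31, adjusted p = 0.446).

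Col4a1 and Col4a2 are neighbours on chromosome 8 that are read in opposite directions from a common start region, so their promoters are shown for the pair that moved together. RefSeq windows (build GRCm38.p6) run from 250 bases before to 50 bases after the annotated start. They are chr8:11312777-11313076 on the minus strand for Col4a1 and chr8:11312555-11312854 on the plus strand for Col4a2, and they share 78 bases. Capitals mark the CCAAT box (CCAAT), the GC box (GGGCGG) and the TATA box (TATAAA), each searched on both strands.
Col4a1: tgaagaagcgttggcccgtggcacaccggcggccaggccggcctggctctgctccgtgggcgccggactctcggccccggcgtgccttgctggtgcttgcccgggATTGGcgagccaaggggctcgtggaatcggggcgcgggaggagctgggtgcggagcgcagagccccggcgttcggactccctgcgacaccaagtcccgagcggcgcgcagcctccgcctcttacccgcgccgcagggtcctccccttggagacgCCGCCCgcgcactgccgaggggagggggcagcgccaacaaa
Col4a2: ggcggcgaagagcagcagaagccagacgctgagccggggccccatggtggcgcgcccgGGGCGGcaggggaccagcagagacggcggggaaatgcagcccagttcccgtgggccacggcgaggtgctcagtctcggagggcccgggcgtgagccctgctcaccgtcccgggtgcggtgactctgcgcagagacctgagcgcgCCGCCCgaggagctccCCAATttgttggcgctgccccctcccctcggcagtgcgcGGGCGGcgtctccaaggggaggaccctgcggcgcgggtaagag
The Col4a1 window holds 1 CCAAT box and 1 GC box, and the Col4a2 window holds 1 CCAAT box and 3 GC boxes. The GC box of Col4a1 lies in the 78 shared bases and is the same site as the last GC box of Col4a2, read on the other strand. Neither window holds the TATA letters. Of all 32851 windows of this length, 37.4% hold a CCAAT box, 35.7% a GC box and 13.6% a TATA box. Of 38 windows of 35 collagen genes, 13, 23 and 5 did. A match is a description of the letters and not of a bound factor.

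In the beaded filament class, 3 chains were lower in MSC IV. Col6a1, Col6a2 and Col6a3 encode the chains of the common form of type VI collagen, which lies around cells and binds them to the matrix. Col6a3 had 6.54 and 6.52 in MSC IV, against 8.22 to 11.60 (median 10.51) on the other arrays. It was lower by -3.84 ± 0.565, or 14.3-fold (adjusted p = 0.00251), with both MSC IV arrays just under the median of the table. Col6a2 had 8.69 and 7.86 in MSC IV, against 10.04 to 11.96 (median 10.48) on the other arrays, a difference of -2.48 ± 0.409 (adjusted p = 0.00404). Col6a1 had 8.95 and 8.38 in MSC IV, against 10.40 to 11.81 (median 10.74), a difference of -2.25 ± 0.369 (adjusted p = 0.00392).

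For all 3 chains MSC IV lay below every other array and differed from each of the other four preparations in the pairwise tests, while no other pair did. Without MSC IV replicate 2 the calls of Col6a1 (-1.96, adjusted p = 0.0571) and Col6a2 (-2.06, adjusted p = 0.0598) were lost, and the F test calls of both as well. Without any 1 array Col6a3 kept its call in MSC IV (-4.10 to -3.57). Replicates of MSC I and MSC II were far apart for these genes: Col6a3 had 11.60 and 9.85 in MSC I and 8.22 and 10.35 in MSC II. In the pairwise tests MSC I differed from MSC IV alone, whose low means (8.28 for Col6a2, 8.67 for Col6a1) enter the mean of the other four. Against that mean, Col6a2 was 1.56 ± 0.409 higher in MSC I (adjusted p = 0.0187) and Col6a1 1.08 ± 0.369 (adjusted p = 0.0475). Without MSC I replicate 1 these were 1.10 (adjusted p = 0.175) and 0.60 (adjusted p = 0.367). The Col6a1 call was also lost without 7 other arrays, namely MSC II replicate 1, where it fell under 1 (0.91), and either array of MSC III, IV or V (adjusted p = 0.0518 to 0.0788), and with the replicate block (adjusted p = 0.0725).

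The promoters of the 3 chains that were lowest in MSC IV are shown to compare genes of one trimer. Col6a1 (chr10:76725995-76726294) and Col6a2 (chr10:76623581-76623880) are on chromosome 10 and Col6a3 (chr1:90843922-90844221) on chromosome 1, all on the minus strand, with capitals as above.
Col6a1: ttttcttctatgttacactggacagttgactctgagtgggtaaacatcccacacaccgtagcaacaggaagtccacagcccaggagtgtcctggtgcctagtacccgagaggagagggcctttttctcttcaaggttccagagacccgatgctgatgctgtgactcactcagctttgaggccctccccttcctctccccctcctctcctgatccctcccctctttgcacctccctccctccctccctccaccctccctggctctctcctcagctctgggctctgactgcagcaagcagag
Col6a2: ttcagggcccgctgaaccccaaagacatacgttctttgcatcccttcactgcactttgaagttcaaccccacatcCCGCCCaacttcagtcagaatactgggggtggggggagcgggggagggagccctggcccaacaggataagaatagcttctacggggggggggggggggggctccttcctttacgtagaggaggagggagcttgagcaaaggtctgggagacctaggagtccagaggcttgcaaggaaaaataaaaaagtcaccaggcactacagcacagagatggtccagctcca
Col6a3: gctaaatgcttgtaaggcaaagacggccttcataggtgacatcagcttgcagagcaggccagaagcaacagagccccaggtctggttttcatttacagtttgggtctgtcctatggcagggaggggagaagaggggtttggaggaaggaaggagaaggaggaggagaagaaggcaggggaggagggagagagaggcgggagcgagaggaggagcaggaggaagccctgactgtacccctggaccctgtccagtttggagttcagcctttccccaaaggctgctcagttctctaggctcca
None of these windows holds the CCAAT or TATA letters, and the GC box occurs once, in Col6a2. Their GC content was 57.3% for Col6a1, 56.7% for Col6a2 and 56.3% for Col6a3, beside 74.0% for Col4a1 and 73.7% for Col4a2.

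Col6a4, Col6a5 and Col6a6 are neighbouring paralogues on chromosome 9 whose chains resemble that of Col6a3 and can take its place in type VI collagen. Col6a5 had 7.76 and 9.32 in MSC II, against 4.72 to 5.49 (median 4.98) on the other arrays, a difference of 3.55 or 11.7-fold. In the F test with no filter its adjusted p was 0.00613. Its second probe set had 5.87 and 6.78 in MSC II, against 4.93 to 5.24 elsewhere. Col6a4 had 7.22 and 7.03 in MSC I, against 5.19 to 5.43 (median 5.27), a difference of 1.84 (F test with no filter, adjusted p = 7.89e-05). Each gene stood above the median in that preparation alone and was not tested without either of its arrays, so p-values of the filtered contrasts are not used. Col6a6 was not tested. It had 6.37 and 6.88 in MSC II, against 5.90 to 6.5 on the other arrays. How far probes of these paralogues take up each other's transcripts was not tested.

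Among short-chain network collagens, Col8a1, a chain of the type VIII collagen of vessel walls and corneal membranes, separated the ends of the series. It had 11 and 11.67 in MSC I, against 6.78 to 10.69 on the other arrays, and was 1.92 ± 0.29 higher there (adjusted p = 0.00191). In MSC IV it had 7.83 and 6.78, against 9.22 to 11.67 (median 10.41) on the other arrays. The difference in MSC IV was -3.12 ± 0.29, or 8.71-fold lower (adjusted p = 0.000386). Neither group overlapped the rest, and both calls held without any 1 array. In the order MSC I, V, II, III and IV, no neighbours differed in the pairwise tests until MSC IV. Its partner Col8a2 was low, with 5.53 and 5.21 in MSC I against 5.57 to 7.47 on the other arrays, and was lower in MSC I (-1.16 ± 0.255, adjusted p = 0.00941). Leaving out MSC I replicate 2 ended that call (adjusted p = 0.0787). Highest for Col8a2 were MSC III (7.13 ± 0.161) and MSC V (6.93 ± 0.756), each of which differed from MSC I and from MSC IV.

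Col10a1, the chain of type X collagen, is best known from hypertrophic cartilage, the zone that is replaced by bone. It was highest in MSC I and not in MSC IV, the preparation with the highest osteoblast marker sum. Its level was 8.64 and 8.83 in MSC I, against 5.62 to 7.13 (median 6.37) on the other arrays, with no overlap. The difference of 2.40 ± 0.282 is a 5.29-fold higher level (adjusted p = 0.000609), and MSC I differed from each other preparation. MSC IV had 6.47 and 5.75, both under the median of the table. The call held without any 1 array (2.31 to 2.50). Its promoter window (chr10:34389731-34390030, plus strand) is shown as that of a chain raised in 1 preparation, with the TATA box in capitals, and that of Col11a1 (chr3:114030290-114030589, plus strand), which was highest in MSC IV, is set beside it.
Col10a1: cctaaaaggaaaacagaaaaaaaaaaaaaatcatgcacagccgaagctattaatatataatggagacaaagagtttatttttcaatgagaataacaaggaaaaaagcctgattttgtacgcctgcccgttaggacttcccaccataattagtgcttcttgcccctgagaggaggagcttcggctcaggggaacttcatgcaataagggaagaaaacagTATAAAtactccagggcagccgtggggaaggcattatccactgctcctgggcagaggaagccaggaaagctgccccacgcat
Col11a1: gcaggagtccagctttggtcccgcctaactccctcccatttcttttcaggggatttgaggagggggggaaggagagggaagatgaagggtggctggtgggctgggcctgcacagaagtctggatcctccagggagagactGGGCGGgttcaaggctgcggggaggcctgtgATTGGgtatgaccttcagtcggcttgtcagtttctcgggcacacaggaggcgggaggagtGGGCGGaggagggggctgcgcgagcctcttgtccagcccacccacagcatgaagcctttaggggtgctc
The Col10a1 window has 1 TATA box, no CCAAT box, no GC box and a GC content of 44.3%. The Col11a1 window has 1 CCAAT box, 2 GC boxes, no TATA box and a GC content of 62.3%.

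Col12a1 was the FACIT chain that differed. Type XII collagen lies on the surface of type I fibrils in dense connective tissue. Col12a1 had 8.52 and 10.23 in MSC II, against 9.40 to 11.79 (median 11.65) on the other arrays, so the groups overlapped through MSC IV (10.62 and 9.40). It was lower by -1.85 ± 0.442 in MSC II (adjusted p = 0.0256). Leaving out MSC II replicate 1 gave -0.99 (adjusted p = 0.162), and the value was -1.85 with the replicate block (adjusted p = 0.0504). In the F test, its adjusted p became 0.0509 when MSC I replicate 1 was left out and 0.0506 when MSC III replicate 1 was. The remaining tested chains were not called. They were the FACIT chain Col16a1 (5.98 to 6.68 over all arrays), Col18a1, the source of endostatin (6.5 to 7.29), and Col26a1 (6.22 to 6.88).

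Counts of chains called in each preparation are shown for all 44 chains without the low-value filter, since that filter favours genes that are high in 1 preparation. Without it MSC I had 11 chains called (6.83% of all genes), MSC II had 5 (2.54%), MSC III had 1 (1.01%), MSC IV had 9 (5.61%) and MSC V had 0 (1.71%), with 12 in MSC V at an unadjusted p under 0.05. Col14a1 entered in MSC I (1.45, adjusted p = 0.0383), Col15a1 entered in MSC IV (1.33, adjusted p = 0.00315), and Col6a1 left in MSC I (adjusted p = 0.0884).

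**Figure D4:**
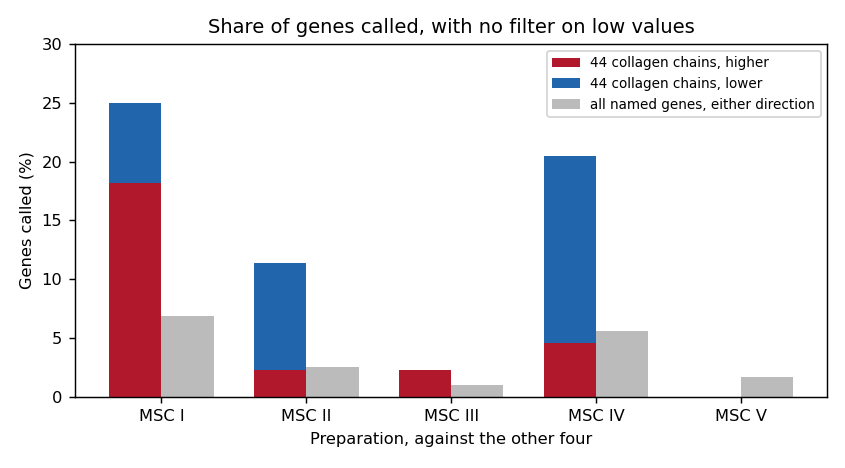
Percentage of the 44 collagen chains (left bars, higher in red and lower in blue) and of all 19938 named genes (right bars, grey, either direction) called in each preparation against the other four, with no filter on low values. MSC I reaches 25% of the chains and MSC IV 20.5%, and MSC V has 0.

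The genes that modify, trim, cross-link and bind collagen chains were examined beside the chains themselves, from a list of 44 entries of which 40 had a probe set of their own and 36 were tested. Several enzymes that act on many collagens were not called. The chaperone Serpinh1, the isomerase Ppib, the hydroxylase subunit P4hb and the cross-linking enzyme Lox had ranges of 0.28 to 0.67 log2 between preparation means and no call in any preparation. In the F test Serpinh1 (adjusted p = 0.0277) and Lox (adjusted p = 0.0304) missed only the 1 log2 threshold. Of the 36, MSC IV had 4 higher and 7 lower (3.29% and 7.7% of all tested genes), MSC I 3 higher and 5 lower (7.73% and 5.22%), and MSC II 4 higher and 4 lower (2.45% and 2.69%). MSC III had 1 higher and 1 lower (1.31% and 0.957%), and MSC V had 1 higher (2.11%). These counts include Itga2, which passed the filter through MSC I alone. It was called higher there and lower in MSC II, III and IV. Those lower calls come from the high MSC I level within the mean of the other four. All arrays of MSC II to MSC V lay between 5.24 and 5.56, and no pair among these preparations was called. P4ha3 was counted as higher in MSC II and MSC III, where the low MSC IV level (mean 8.26) enters the mean of the other four. Its means in MSC II, III and V (11.27, 11.55 and 11.01) did not differ from each other in the pairwise tests. MSC II and MSC III did differ from MSC I (10.1). Both calls were lost in several fits with 1 array left out.

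Of the processing enzymes, 5 had differences of at least 2 log2. P4ha3, a subunit of proline hydroxylase, which stabilises the triple helix, had 8.77 and 7.75 in MSC IV, below all other arrays (median 11.07, highest 11.62) (-2.72 ± 0.276, adjusted p = 0.000533). P3h2, another proline hydroxylase, had 7.37 and 7.5 in MSC I, against 9.05 to 12.21 on the other arrays (-2.99 ± 0.379, adjusted p = 0.000887). In MSC II P3h2 had 11.43 and 12.21, above all other arrays (2.50 ± 0.379, adjusted p = 0.00544), a call lost without MSC II replicate 2 (2.11, adjusted p = 0.0642). Adamts3, a protease that removes procollagen ends, was highest in MSC II, with 8.76 and 9.41 against 5.99 to 8.11 on the other arrays (2.41 ± 0.312, adjusted p = 0.00294). Pcolce2, an enhancer of propeptide removal, had 7.66 and 9.29 in MSC IV, against 4.93 to 7.72 on the other arrays, which overlap (2.55 ± 0.50, adjusted p = 0.00789). The cross-linking enzyme Loxl4 had 10.61 and 12.01 in MSC IV, against 7.66 to 9.69 (2.36 ± 0.468, adjusted p = 0.00832). Without MSC IV replicate 2 these last values were 1.74 (adjusted p = 0.0945) for Pcolce2 and 1.66 (adjusted p = 0.102) for Loxl4.

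Among the collagen receptors, 3 integrin subunits had differences of at least 2 log2. Itga2 encodes an integrin subunit that binds mainly fibrillar collagens. It had 9.36 and 9.47 in MSC I, against 5.24 to 5.56 (median 5.35) on the other arrays, a difference of 4.02. As Itga2 passed the filter through MSC I alone, the p-value of that difference is not used. In the F test with no filter its adjusted p was 2.5e-06. Itga1, an integrin subunit with a preference for type IV collagen, had 10.16 and 9.50 in MSC I, against 4.93 to 8.17 (median 6.61), a difference of 3.11 ± 0.32 (adjusted p = 0.000314). It was lower in MSC II (-2.10, adjusted p = 0.00557) and MSC IV (-2.44, adjusted p = 0.00153), the preparations in which Col4a1 and Col4a2 were also lower. These differences are widened by the high MSC I level (mean 9.83) within the mean of the other four. In the pairwise tests MSC II and MSC IV each differed from MSC I, III and V and not from each other. Itga10, a subunit known from cartilage, had 9.50 and 10.09 in MSC IV, against 5.33 to 7.81 (median 6.60) on the other arrays (3.12 ± 0.238, adjusted p = 0.000162). The calls of Itga1 and Itga10 held without any 1 array. Itga2 was not tested without either MSC I array. Their common partner Itgb1 lay between 12.32 and 12.60 and was not called, nor was the receptor kinase Ddr2.

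**Figure D5:**
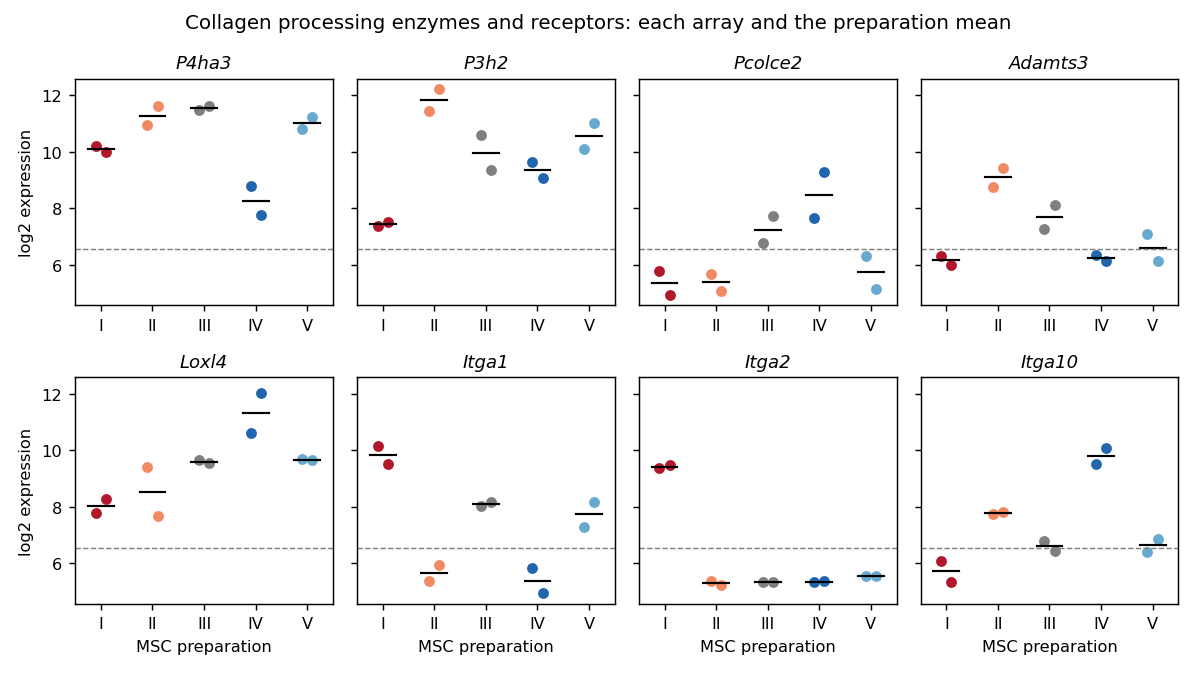
Log2 expression of the 8 collagen processing and receptor genes with a called difference of at least 2 log2 in a preparation. Points are single arrays, black bars are means of 2 arrays, and the dashed line marks 6.55. Itga1 and Itga2 are highest in MSC I, and Itga10, Loxl4 and Pcolce2 in MSC IV.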

How the data were processed

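Total RNA from 5 preparations was measured on 10 single-colour arrays, and the deposited table gives a log2 value for each of 35399 probe sets on each array. RMA and Partek were used by the authors, per the submitters' processing notes, without version numbers. RMA corrects background, equalises array distributions by quantiles and compresses differences between low values. Of the probe sets, 21789 had 1 gene symbol in the platform annotation and were used, 1621 had several and 11989 had none.

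Genes exceeding the table's median on 2 arrays or more were tested. The fit of preparation means used limma 3.58.1 (lmFit, eBayes; R 4.3.3, tables in Python 3.11.15), with 1 estimate of spread over all arrays. Two-sided p-values were adjusted within a contrast for all tested genes (Benjamini-Hochberg). Calls needed 1 log2 or more together with an adjusted p under 0.05. Errors are SE for differences and SD of 2 arrays for levels. The members and lists were chosen with earlier results of these data known. Every collagen chain could be named. Chains called in the F test with a range of at least 2 log2, and their partners, are given per array, and processing and receptor genes where called at 2 log2 or more. The fit was tested on simulated data. Alternatives were no filter, a filter at the 75th percentile (9.22), the mean of probe sets, centred arrays, a further quantile normalisation, trend and robust priors, the replicate number as a block and each array left out. Sequences are from RefSeq, GRCm38.p6.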

Additional observations from a re-analysis of the deposited data

How the results depend on the processing

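No result reversed under any alternative. The share called over all genes is not given for the alternatives in this paragraph, so their counts describe these genes alone. With the filter at the 75th percentile, which tests fewer genes, 10 chains were tested. The F test called 9 of them, MSC I 6, MSC II 2 and MSC III 0 (limma, 0 at an unadjusted p under 0.05). With the replicate number as a block MSC III had 0 chains (6 at an unadjusted p under 0.05), MSC III against MSC IV had 5 and MSC II against MSC V had 3, and the processing and receptor genes of MSC III numbered 1, as with no low-value filter. Deviations of same-numbered arrays correlated at -0.555 to 0.203 between preparations, with 1 of the 10 pairs over 0.1. The main fit did not pair arrays by replicate number, and whether that number marks a batch was not tested. MSC V had 2 chains with centred arrays and 2 after a further quantile normalisation. Leaving out 1 array at a time gave 13 to 16 chains in the F test, 8 to 13 in MSC I, 3 to 5 in MSC II, 0 to 1 in MSC III, 5 to 9 in MSC IV and 0 to 2 in MSC V. For the processing and receptor genes it gave 5 to 9 in MSC I, 6 to 9 in MSC II, 0 to 2 in MSC III, 8 to 11 in MSC IV and 0 to 2 in MSC V. Of 906 values for 55 single-gene differences, 841 kept direction and call and 65 lost the call. The cause was not tested. Levels near the median of the table are limited by background.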

Other observations

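Some chains that were not tested had signal in 1 preparation. Col15a1, a multiplexin chain, had 6.43 and 6.90 in MSC IV, against 5.11 to 5.97 on the other arrays. Col28a1 had 6.27 and 6.45 in MSC I, against 5.33 to 5.69, a difference of 0.85 in the fit without the low-value filter. For Col14a1 and Col24a1 the signal came from 1 array. Col14a1 had 7.62 on replicate 2 and 5.98 on replicate 1 of MSC I, against 5.00 to 5.67 on the other arrays. Col24a1 had 6.91 on replicate 2 and 5.79 on replicate 1 of MSC IV, against 5.09 to 5.65.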
